A study of Mus musculus with 3 samples.

Results

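The respiratory chain genes were taken by symbol: names that start with Nduf, Uqcr, Atp5 or mt-, Cox followed by 4 to 8, and Sdha to Sdhd, without the hypoxia-linked isoforms Cox4i2 and Ndufa4l2 and without pseudogene names. The rule found 104 of the 32285 genes in the files, 91 of them in the nucleus and 13 on the mitochondrial genome. They were followed in endothelial cells (ECs) of mouse lung by single-cell 3′ RNA sequencing in droplets, with 3 libraries that each stand for a group. All mice were C57BL/6 of WT genotype. The control library came from lungs taken 6 h after a tail vein injection of PBS, and the other libraries came from lungs taken 6 h or 30 h after injection of 200000 B16-F10 cells in 100 µl of PBS. B16-F10 is a mouse skin melanoma line that was derived from this strain. The 30 h library has no PBS library of its own time, so time, library and melanoma cells cannot be told apart in it. The lungs of the mice of a group were pooled, 2 mice per treatment per the labels, while the methods of the study give another number. The ECs were sorted as Pecam1+ Ptprc- cells after a warm collagenase digestion, and per the labels the 6 h library also holds melanoma cells. Age is not given in the labels.

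The respiratory chain passes electrons from NADH and succinate to oxygen through complexes I to IV of the inner mitochondrial membrane, and complex V, the ATP synthase, uses the proton gradient that this builds to make ATP. Complex II is made from nuclear genes alone, whereas the other complexes join nuclear subunits with a few core subunits made inside the mitochondrion from its own DNA. Mitochondrial mRNAs are cut from long polycistronic transcripts of both strands and carry short poly(A) tails. Quiescent ECs draw much of their ATP from glycolysis, and their mitochondria are also known for roles in biosynthesis and redox signaling.

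The rule kept 11231, 10583 and 9278 endothelial barcodes in the control, 6 h and 30 h libraries, with 90853430, 87340328 and 81485079 UMIs in sum. A UMI is a tag that marks 1 captured RNA molecule. The median barcode held 7782, 8033 and 8676 UMIs. The limit of 20% on mt- UMIs is part of the rule and trims the upper end of the mt- values, but it removed only 4, 10 and 6 barcodes. Between 22 and 38 barcodes were shared by a pair of libraries. The 8 endothelial markers, among them the Pecam1 and Cdh5 that chose the barcodes, were present in all 3 libraries, with a summed level of 7782, 7704 and 9106 counts per 1000000 UMIs (CPM). Globin and other red cell RNA summed to 3249, 2119 and 829 CPM, epithelial markers to 780, 578 and 363 CPM, and melanoma markers to 4.82, 19.4 and 6.25 CPM. Gene models that can collect ribosomal RNA reads held 0.596%, 0.757% and 2.44% of UMIs, so the 30 h library stood apart in this respect. Of the alternatives, one left the UMIs of these gene models, with those of mt- genes and Malat1, out of the total. Another left out barcodes with UMIs of other cell types, though red cell genes were not among those used. Beyond these alternatives, the part of these values in the results below was not tested.

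A single library stands for each group, so replicate error is unknown and no test or p-value is given. UMIs were summed over the barcodes of a library and differences are given as log2 ratios of CPM plus 1. Intervals are exact 95% intervals, which cover counting error only and are very narrow at this depth. In bulk sums of this kind, fewer expressing cells and less RNA per cell cannot be told apart. Of the 91 nuclear members, 85 passed a filter of 5 CPM on the mean of the 3 libraries, and so did all 13 mt- members. A difference of at least 0.3219 on the log2 scale, written 0.32 from here on, was counted as called.

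Together the mt- members made up 2.54% of the endothelial UMIs of control, 2.49% at 6 h and 2.87% at 30 h. The nuclear members made up 1.46%, 1.48% and 1.80%. Both sums were thus close to control at 6 h and highest at 30 h. The same order held for single barcodes. The median share of nuclear members per barcode was 1.478%, 1.498% and 1.831%, with quartiles of 1.21% and 1.77% in the control library and of 1.52% and 2.17% in the 30 h library. The median mt- share per barcode was 2.45%, 2.39% and 2.81%. The distributions of single barcodes overlapped widely in every class of EC, as the plot of shares per barcode shows.

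**Figure D1:**
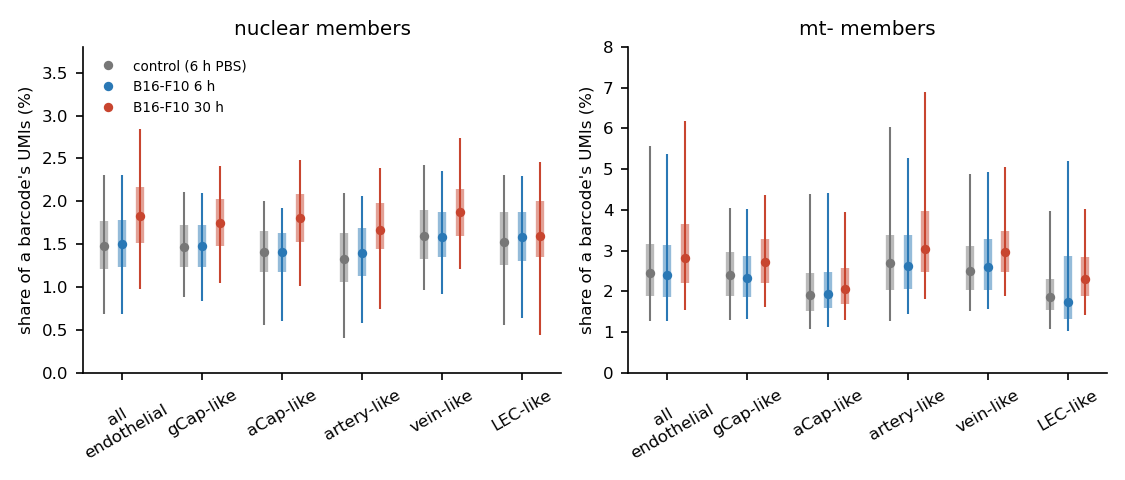
Share of the UMIs of a barcode (%) from nuclear members (left) and mt- members (right) in all endothelial barcodes and in 5 classes of EC, for the control, 6 h and 30 h libraries. Dots are medians over barcodes, thick bars quartiles and thin bars the 5th to 95th percentile, and the 30 h medians of all endothelial barcodes (1.83% and 2.81%) lie above those of the control library (1.48% and 2.45%).

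The higher share at 30 h was seen at every depth of barcode. In barcodes with 1000 to 2000 detected genes, nuclear members took 1.598%, 1.609% and 2.274% of UMIs in the control, 6 h and 30 h libraries. In barcodes with 2000 to 3000 genes they took 1.54%, 1.54% and 1.84%, in those with 3000 to 4000 genes 1.45%, 1.48% and 1.78%, and in those from 4000 to 5000 genes 1.40%, 1.41% and 1.74%. The mt- share of the same 4 strata was also highest at 30 h in each, from 5.01% against 4.29% in the control library in the shallowest to 2.61% against 2.36% in the deepest.

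The mitochondrially encoded mRNAs were measured first. The 5 mRNAs with the most UMIs, mt-Atp6, mt-Co3, mt-Co2, mt-Co1 and mt-Cytb, differed little between the libraries. For mt-Atp6, a subunit of the proton channel of complex V, the level was 5289 CPM in control, 5072 CPM at 6 h and 5921 CPM at 30 h. The catalytic subunit of cytochrome c oxidase, mt-Co1, was at 3193, 3076 and 3370 CPM. The other core subunits of complex IV, mt-Co2 at 3426, 3298 and 3851 CPM and mt-Co3 at 3879, 3854 and 4203 CPM, followed the same order. The only mitochondrially encoded subunit of complex III, mt-Cytb, was at 3156, 3177 and 3436 CPM. Each of the 5 was highest at 30 h, with log2 ratios to control between 0.08 and 0.17, under the limit of a call.

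The 7 mt-Nd mRNAs encode the membrane core of complex I. mt-Nd1 was at 1519, 1458 and 1668 CPM and mt-Nd4 at 2105, 2117 and 2344 CPM, with log2 ratios of 0.13 and 0.15 at 30 h. mt-Nd2 was at 1652, 1672 and 2065 CPM, a log2 ratio of 0.3217 that lay just under the limit. Values for mt-Nd5 were 319, 326 and 431 CPM, a log2 ratio of 0.44 at 30 h. The short genes stood out more. mt-Nd3 was at 517, 525 and 879 CPM, and its log2 ratio at 30 h was 0.76 (0.75 to 0.78). mt-Nd4l was at 203, 209 and 324 CPM, a log2 ratio of 0.67 (0.65 to 0.70). The only member read from the light strand, mt-Nd6, was at 40.2, 39.3 and 49.9 CPM, a log2 ratio of 0.31.

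The largest difference of all 104 members was that of mt-Atp8, the small complex V subunit whose reading frame overlaps that of mt-Atp6. It had 5042, 5147 and 13123 UMIs, or 55.5, 58.9 and 161 CPM, a log2 ratio to control of 0.09 at 6 h and of 1.52 (1.49 to 1.58) at 30 h. Its neighbor on the same mRNA, mt-Atp6, had a log2 ratio of 0.16 at 30 h. These are counts of UMIs assigned to each gene, and the level of the shared mRNA was not measured. The makeup of the UMIs of the 13 mt- genes differed as well. mt-Atp8 went from 0.219% of mt- UMIs in the control library to 0.561% in the 30 h library and mt-Nd3 from 2.04% to 3.06%, while mt-Co1 went from 12.6% to 11.7%.

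**Figure D2:**
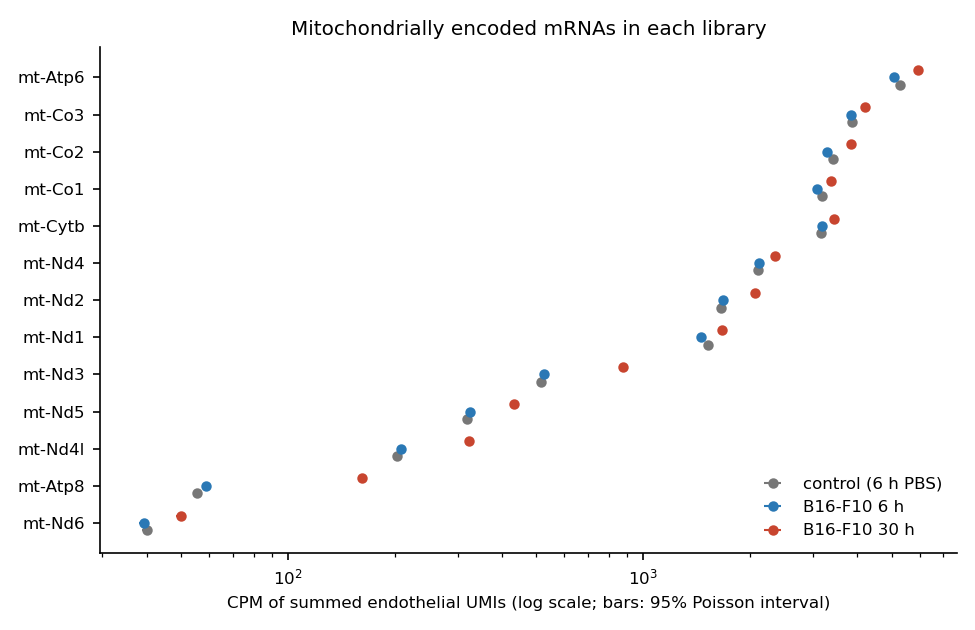
Level of the 13 mitochondrially encoded genes (CPM of summed endothelial UMIs, log scale) in the control, 6 h and 30 h libraries. Bars are exact Poisson intervals and mostly lie within the dots. The 30 h library has the highest value in every row, and mt-Atp8 (161 against 55.5 CPM in control) and mt-Nd3 (879 against 517 CPM) are set apart the most.

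The sequences of mt-Atp8 and mt-Nd4l are shown because both genes are short and share their last bases with the start of a longer gene, so that only the bases in lower case can give reads of the short gene alone. mt-Atp8 lies at chrM:7766-7969 (mm10, + strand, 204 bases), and the 43 bases that it shares with mt-Atp6 are in capitals. mt-Nd4l lies at chrM:9877-10173 (+ strand, 297 bases), and the 7 bases that it shares with mt-Nd4 are in capitals. Both are from GENCODE M21 and coding throughout.
mt-Atp8: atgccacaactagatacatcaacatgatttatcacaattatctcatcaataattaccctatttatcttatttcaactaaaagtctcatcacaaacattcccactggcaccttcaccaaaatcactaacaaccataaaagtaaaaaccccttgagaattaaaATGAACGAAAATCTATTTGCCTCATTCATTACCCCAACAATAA
mt-Nd4l: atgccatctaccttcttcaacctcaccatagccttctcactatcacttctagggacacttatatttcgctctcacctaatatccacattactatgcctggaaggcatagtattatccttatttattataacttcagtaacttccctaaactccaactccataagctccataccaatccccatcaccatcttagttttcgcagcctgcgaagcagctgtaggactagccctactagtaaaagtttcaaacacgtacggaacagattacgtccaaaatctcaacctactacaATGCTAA

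All 13 mt- members were higher at 30 h than in control, with a median log2 ratio of 0.17, and 4 of them (30.8%) were called higher, against 12.2% of all genes and 26.6% of other genes weighted to the same lengths. They were likewise all higher at 30 h than at 6 h, with a median of 0.22 and 5 called (38.5%, against 12.7% of all genes and 28.8% of those weighted to the same lengths). At 6 h, 7 were higher and 6 lower than in control, with a median of 0.01 and no call. Across the 10175 genes above the filter the medians against control were -0.01 for the 6 h and -0.07 for the 30 h library.

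Among nuclear members, the 6 h library was close to control. The median log2 ratio of the 85 was 0.02, with 48 higher and 37 lower. A single member was called higher, against 6.56% of all genes, and a single member was called lower, against 5.88% of all genes. The member called higher was Ndufaf4, an assembly factor of complex I, at 35.1, 46.2 and 39.2 CPM in the 3 libraries, a log2 ratio of 0.39 (0.33 to 0.46) at 6 h. The member called lower was Ndufc2, an accessory subunit of complex I, at 237, 188 and 206 CPM, a log2 ratio of -0.34 (-0.37 to -0.31). Ndufaf4 is named because it made up the whole count.

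At 30 h the median of the 85 nuclear members was 0.25 above control, with 74 higher and 11 lower. In all, 34 (40%) were called higher, against 12.2% of all genes, and 0 were called lower, against 19.1% of all genes. The members have short mRNAs, and among other genes weighted to the same lengths 26.3% were called higher and 11.7% lower. Against the 6 h library the median was 0.23, with 76 of 85 higher. Here 28 were called higher, against 12.7% of all genes, and 0 lower, against 16.6% of all genes. That is 32.9% called higher, beside 26.7% of other genes weighted to the same lengths. Both comparisons rest on the same 30 h library, and both comparisons with control rest on the same control library.

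Complex I, the NADH dehydrogenase, has 36 nuclear members here. At 30 h, 33 of them were higher than control and 14 (38.9%) were called, with a median of 0.25, against 12.2% of all genes and 26.4% of other genes weighted to the lengths of these members. The difference was uneven over its parts. The 7 core subunits, which carry the flavin and iron-sulfur clusters, had a median of 0.05 and no call. The 29 accessory subunits, which surround the core, had a median of 0.32, and 28 were higher and held all 14 calls. The annotated transcripts of the core subunits had 983 to 2661 bases, and those of most accessory subunits were shorter. Shares weighted to length were not taken for these parts, so the part of length in their difference was not tested. The accessory subunit Ndufb2 was at 79.0, 87.4 and 128 CPM, a log2 ratio of 0.69 (0.65 to 0.74) at 30 h. Ndufa1, which is needed for assembly of the membrane arm, was at 109, 118 and 177 CPM, a log2 ratio of 0.69 (0.65 to 0.73). Ndufc2 was again the lowest of complex I, at -0.21 (-0.24 to -0.18).

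Apart from Ndufc2, the differences of complex I at 6 h were under the limit of a call. Ndufab1, the mitochondrial acyl carrier protein that is also part of complex I, was at 104, 120 and 123 CPM, a log2 ratio of 0.21 at 6 h and 0.25 at 30 h. Ndufb6, an accessory subunit, was at 82.2, 94.1 and 103 CPM, with 0.19 and 0.3188, just under the limit. Ndufa7 was at 238, 208 and 320 CPM, so it was below control at 6 h (-0.19) and above it at 30 h (0.43).

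The 4 genes of complex II, the succinate dehydrogenase that also works in the TCA cycle, did not share a direction. The flavoprotein gene Sdha was at 116, 112 and 107 CPM, a log2 ratio of -0.11 at 30 h, and the membrane anchor gene Sdhd at 67.8, 62.6 and 65.6 CPM, a log2 ratio of -0.05. The iron-sulfur subunit gene Sdhb was at 133, 129 and 156 CPM, a log2 ratio of 0.23, and the other anchor gene Sdhc at 54.8, 54.7 and 65.2 CPM, a log2 ratio of 0.25. None was called.

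Complex III, the cytochrome bc1 complex, had 8 nuclear members with a median of 0.16 at 30 h, 6 of them higher and 2 called (25%, beside 27.8% of other genes weighted to their lengths). The called members were small accessory subunits. Uqcr11 was at 229, 228 and 333 CPM, a log2 ratio of 0.54 (0.52 to 0.57), and Uqcrq at 187, 207 and 238 CPM, with 0.34 (0.31 to 0.37). Uqcrb, another small subunit, was at 287, 308 and 357 CPM and just under the limit at 0.31. Uqcrfs1, the Rieske iron-sulfur protein, had the largest negative value of all 85 nuclear members at 30 h. It was at 84.6, 75.3 and 71.4 CPM, with log2 ratios of -0.17 at 6 h and -0.24 (-0.29 to -0.19) at 30 h. Uqcrh, the hinge protein, was at 332, 307 and 324 CPM, with -0.12 and -0.04.

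Of the 17 genes of complex IV, the cytochrome c oxidase, 11 passed the filter and all 11 were higher at 30 h, with a median of 0.35 and 6 called. The called share of 54.5% stood beside 12.2% of all genes and 34.2% of other genes weighted to their lengths. Ndufa4, which is named for complex I but belongs to complex IV, was at 388, 402 and 543 CPM, a log2 ratio of 0.48 (0.47 to 0.51). Cox6c was at 399, 391 and 558 CPM, also 0.48. Cox6b1, which faces the intermembrane space, was at 285, 301 and 391 CPM, with 0.08 at 6 h and 0.45 at 30 h. Cox5a, a subunit on the matrix side, was at 181, 201 and 196 CPM, with 0.15 and 0.12.

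The other 6 genes of complex IV were Cox6a2, Cox7a1 and Cox8b, isoforms of heart and skeletal muscle, and Cox6b2, Cox7b2 and Cox8c, isoforms of testis. In EC barcodes nearly all UMIs of these families came from the general isoforms. Of the UMIs of Cox6a1 and Cox6a2, the muscle gene Cox6a2 held 58, 46 and 24, or 0.237%, 0.192% and 0.0881% (exact 95% interval 0.0565% to 0.131% at 30 h). Cox7a1 held 70, 73 and 97 UMIs beside 32839, 32504 and 37556 of Cox7a2, a share of 0.213%, 0.224% and 0.258%. The testis gene Cox6b2 had 109, 98 and 151 UMIs, a share of 0.419%, 0.371% and 0.472% of its pair with Cox6b1. Cox8b had 29, 33 and 69 UMIs beside 45258, 42445 and 45812 of Cox8a, a share of 0.0640%, 0.0777% and 0.150% (0.117% to 0.190%). The intervals of Cox8b and of Cox6a2 did not overlap between control and 30 h over all ECs, but in gCap-like barcodes they did, at 0.0312% and 0.0553% (0.0294% to 0.0945%) for Cox8b and 0.127% (0.0741% to 0.204%) and 0.0937% (0.0499% to 0.160%) for Cox6a2. In empty droplets these genes were at higher levels than in EC barcodes. Cox6a2 was at 6.76, 10.5 and 8.13 CPM there against 0.638, 0.527 and 0.295 CPM in EC barcodes, and Cox8b at 1.41, 2.02 and 4.44 CPM against 0.319, 0.378 and 0.847 CPM. The few UMIs over all ECs are therefore not read as expression or as a difference between the libraries. Cox7b2 had 1, 0 and 5 UMIs and Cox8c 4, 0 and 0. By class, the share of Cox8b in control was 0.0312% in gCap-like (0.0135% to 0.0616%) and 0.0288% in aCap-like barcodes (0.00349% to 0.104%). In LEC-like barcodes, a small class of lymphatic ECs, Cox8b held 7, 14 and 9 UMIs, or 2.67% (1.08% to 5.43%), 6.63% (3.67% to 10.9%) and 3.85% (1.77% to 7.17%), in each library above the intervals of gCap-like barcodes. Cox8b in LEC-like barcodes was named after its values were seen, and the part of free RNA in it was not tested.

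All 17 nuclear genes of complex V were higher than control at 30 h, with a median of 0.33 and 9 called (52.9%), against 12.2% of all genes and 24.9% of other genes weighted to their lengths. Atp5k and Atp5e had the largest differences. Atp5k, the e subunit of the membrane sector, was at 137, 141 and 254 CPM, a log2 ratio of 0.05 at 6 h and 0.89 (0.86 to 0.92) at 30 h. Atp5e, the epsilon subunit of the F1 head, was at 272, 290 and 466 CPM, with 0.09 and 0.77 (0.75 to 0.80). The catalytic beta subunit Atp5b was at 319, 353 and 368 CPM, with log2 ratios of 0.14 and 0.20. The membrane sector gene Atp5md was at 196, 219 and 267 CPM, with 0.16 and 0.44. Atp5d, the delta subunit, was at 184, 174 and 205 CPM, with -0.08 and 0.16.

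The c-ring, which turns as protons pass, is made from 3 nuclear genes that encode the same mature protein behind different import signals. Atp5g1 was at 146, 161 and 188 CPM, Atp5g2 at 277, 258 and 345 CPM and Atp5g3 at 119, 122 and 152 CPM. The share of Atp5g1 in the 3 was 27.0%, 29.7% and 27.4%, with intervals of 26.6% to 27.4% for control, 29.3% to 30.1% for 6 h and 27.1% to 27.8% for 30 h. The share of Atp5g2 was 51.1%, 47.7% and 50.4%. The intervals cover counting error only, and the spread of these shares between libraries of 1 group is unknown.

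The 9 assembly members were split, with 5 higher, 4 lower and 3 called higher at 30 h (33.3%, beside 22.4% of other genes weighted to their lengths), and a median of 0.16. Ndufaf8, which helps to build complex I, was at 41.5, 47.7 and 67.9 CPM, with log2 ratios of 0.20 and 0.70 (0.65 to 0.77). Cox7a2l, classed here as a supercomplex assembly factor, was at 284, 239 and 245 CPM, with -0.25 (-0.27 to -0.22) at 6 h and -0.21 (-0.24 to -0.19) at 30 h. Cox7a2l and Ndufc2 were thus both lower than control in both melanoma libraries.

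**Figure D3:**
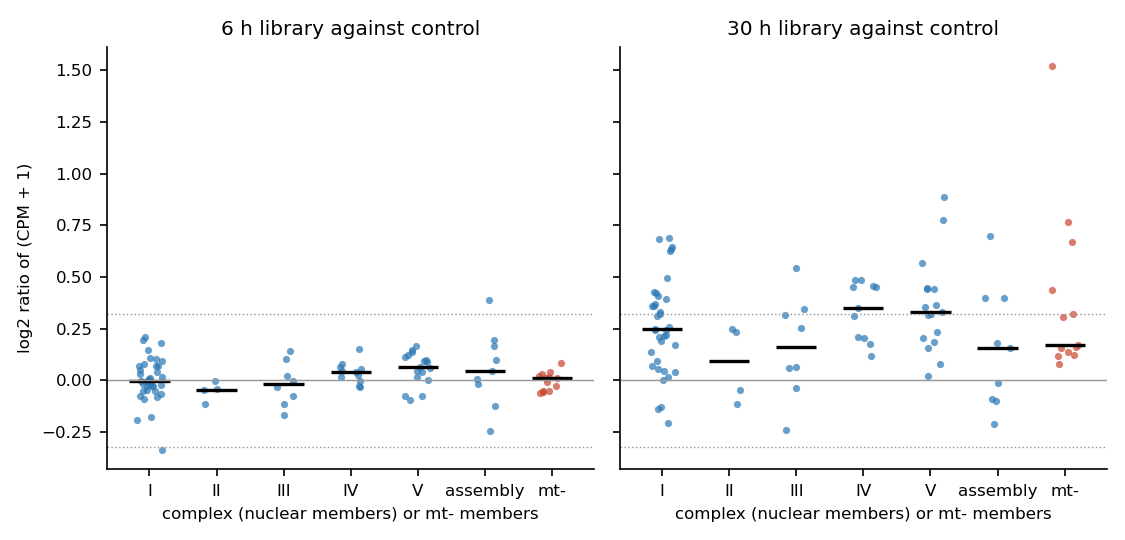
Log2 ratio of (CPM + 1) of each member that passed the filter, by complex, for the 6 h (left) and 30 h (right) library against control. Each dot is 1 gene, black lines are medians and dotted lines mark the limit of a call (0.32). At 6 h the dots lie around 0, and at 30 h all dots of complexes IV and V lie above 0, with medians of 0.35 and 0.33.

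The differences at 30 h moved with the annotated transcript length. Annotated transcripts of the nuclear members were short, with a median of 908 bases against 3033.5 bases for the other genes. Over the other genes, the median log2 ratio at 30 h was 0.24 for transcripts of 400 to 600 bases, 0.17 for 600 to 800 bases, 0.13 for 800 to 1200 bases, 0.00 for 1200 to 2000 bases and -0.18 above 5000 bases. At 6 h the medians of these classes lay between -0.05 and 0.01. The nuclear members of these classes had medians of 0.31, 0.35 and 0.31 up to 1200 bases and of 0.07 at 1200 to 2000 bases. The order was not strict, since the 5 nuclear members of 3000 to 5000 bases had a median of 0.25 and the 23 other genes under 400 bases had 0.15. These lengths are those of 1 annotated transcript per gene, such as 4371 bases for Ndufb2. The length of the mRNAs that were counted was not measured. Across the 85 nuclear members, Spearman's rho of length with the log2 ratio at 30 h was -0.411, across the 13 mt- members it was -0.593, and across 10072 other genes it was -0.259. Points of this kind share both libraries, so these values describe the 2 libraries only.

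mt-Atp8, mt-Nd4l and mt-Nd3, with 204, 297 and 348 annotated bases, were the 3 shortest members and had the 3 largest mt- differences. mt-Atp8 and mt-Nd4l overlap mt-Atp6 and mt-Nd4, so their lengths are those of the annotated genes and not of whole mRNAs. Spearman's rho and the length-weighted shares of the mt- members use these annotated lengths. The longest mt- gene, mt-Nd5 with 1824 bases, had a log2 ratio of 0.44. Atp5k and Atp5e have annotated transcripts of 371 and 421 bases. Taken relative to other genes of like length, an alternative chosen after the data were seen, the median of the nuclear members at 30 h was 0.18 instead of 0.25. On this scale 65 of 85 lay above their length class, with 16 called higher and 2 called lower (Ndufc2 at -0.37 and Cox7a2l at -0.34). The share of other genes past the limit on this scale was not taken, so these calls are counts without a background. The mt- median was 0.08 instead of 0.17, with 10 of 13 above their length class. On this scale Atp5k stood at 0.73, Ndufb2 at 0.80, Ndufa13 at 0.65, Ndufc1 at 0.64 and mt-Atp8 at 1.37, and mt-Atp6, mt-Co2, mt-Co3 and mt-Cytb lay between -0.05 and 0.00. The value of Ndufb2 rests on its annotated length of 4371 bases, which set it against long genes with a median of -0.11. Ndufa13 and Ndufc1 are accessory subunits of complex I that were named after their values were seen.

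**Figure D4:**
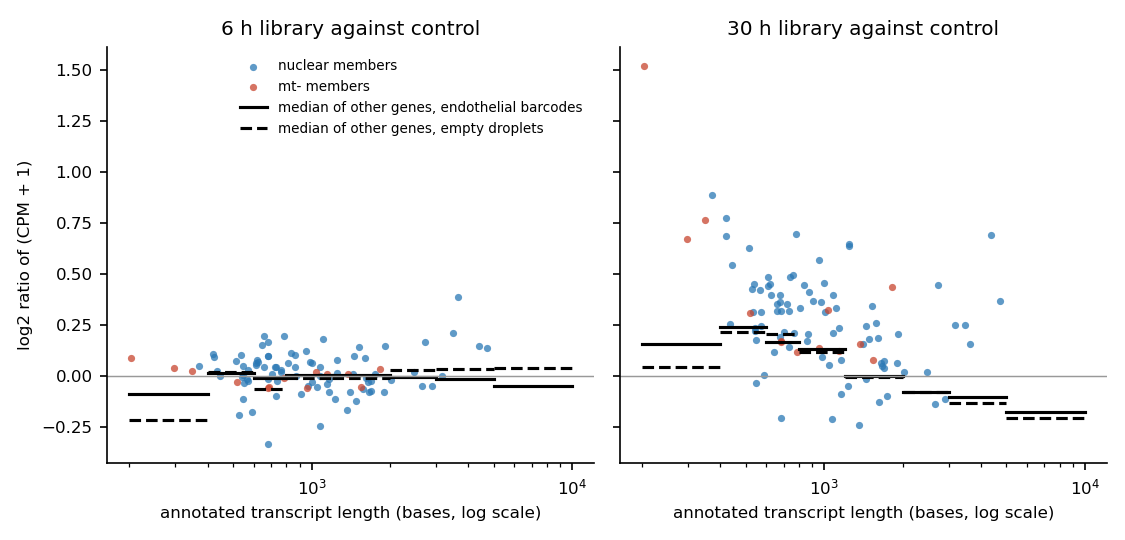
Log2 ratio of (CPM + 1) against annotated transcript length (bases, log scale) for nuclear members (blue) and mt- members (red), at 6 h (left) and 30 h (right) against control. Black lines are medians of all other genes per length class in endothelial barcodes (solid) and in empty droplets (dashed). At 30 h both lines fall with length, from 0.24 and 0.22 at 400 to 600 bases to -0.18 and -0.21 above 5000 bases, and most members lie on or above them.

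Empty droplets, barcodes with 1 to 100 UMIs, hold RNA that is free in the suspension. Their sums differed between the libraries in the same way for nuclear members, which took 2.11%, 2.06% and 2.59% of their UMIs. The median log2 ratio of the 85 nuclear members in empty droplets was -0.01 at 6 h and 0.26 at 30 h, with 73 of 85 higher at 30 h. The mt- members took 4.58%, 3.998% and 4.64%, with medians of -0.17 and 0.03. mt-Atp8 was at 42.0, 50.6 and 115 CPM in empty droplets and Atp5k at 219, 219 and 405 CPM. The length medians of other genes were also alike, with 0.22 at 400 to 600 bases and -0.21 above 5000 bases. The part of transcript length and of free RNA in the endothelial values was not tested beyond these measurements. With 10% of each sum taken off as free RNA, the nuclear median at 30 h was 0.24.

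The classes of EC were compared next, with clusters named from marker genes. General capillary cells (gCap) and aerocytes (aCap), the large capillary cells of gas exchange, make up the alveolar capillaries, and LEC stands for lymphatic ECs. Their counts in the control, 6 h and 30 h libraries were 6344, 6109 and 4727 gCap-like, 1473, 1215 and 1253 aCap-like, 266, 229 and 261 artery-like, 631, 468 and 484 vein-like and 70, 53 and 54 LEC-like barcodes. The remaining barcodes lay in clusters left unnamed or mixed with RNA of other cell types, and they are part of the sums over all ECs. The largest of these clusters was unnamed and led by Ager and Cldn18. It held 575, 683 and 1011 barcodes, with a median of 2762 UMIs. The gCap-like and aCap-like barcodes of the 30 h library formed clusters of their own. Of the 4298 barcodes of cluster 1, 97.3% came from the 30 h library. Cdk8, Cmss1, Gm42418 and Lars2, taken here as gene models that can collect ribosomal RNA reads, were among its leading genes. Control and 6 h gCap-like barcodes lay mostly in clusters 0, 2, 3 and 6, with 31 and 85 in cluster 1. Of the 1200 barcodes of the aCap-like cluster 8, 96.4% came from the 30 h library, and control and 6 h barcodes lay mostly in cluster 4.

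Nuclear members were higher at 30 h in the 4 blood vascular classes. The median log2 ratio was 0.21 in gCap-like barcodes with 71 of 85 higher, 0.30 in aCap-like with 79 higher, 0.25 in artery-like with 70 higher and 0.20 in vein-like with 68 higher. In LEC-like barcodes it was 0.07, with 52 of 86 higher. The medians of all genes in the same classes were between -0.08 and -0.04. When each library was clustered on its own, the gCap-like median was 0.11, and with classes set from marker UMIs of single barcodes it was 0.48, though over only 302, 286 and 287 barcodes. At 6 h the medians were 0.02, 0.00, 0.07, 0.01 and 0.11 in the same order.

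The mt- medians at 30 h were 0.17 in gCap-like, 0.11 in aCap-like, 0.22 in artery-like, 0.25 in vein-like and 0.26 in LEC-like barcodes. mt-Atp8 was the most different member in each of the 5, with log2 ratios of 1.54, 1.33, 1.44, 1.53 and 1.40. The median mt- share per barcode in control was lowest in LEC-like (1.85%) and aCap-like (1.91%) barcodes and highest in artery-like barcodes (2.69%), but the quartiles of the classes overlapped. Differences between classes were not tested.

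**Figure D5:**
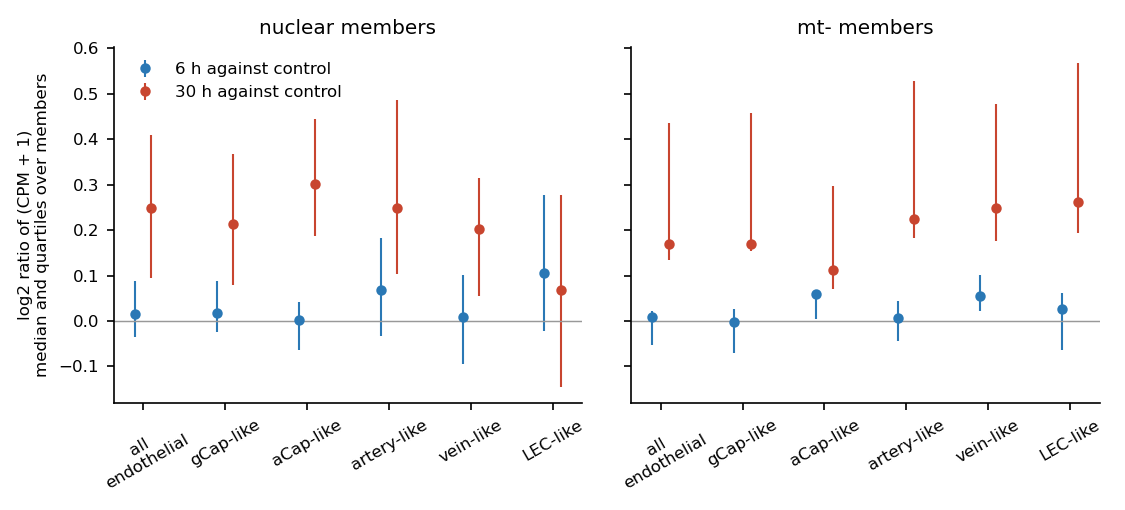
Log2 ratio of (CPM + 1) against control in all endothelial barcodes and in 5 classes of EC, for nuclear members (left) and mt- members (right). Dots are medians over members and bars are quartiles over members, not errors. The 30 h dots of nuclear members lie between 0.20 and 0.30 in the blood vascular classes and at 0.07 in LEC-like barcodes.

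Ndufc2 differed between the classes in level and in direction. In gCap-like barcodes it was at 254, 195 and 205 CPM, a log2 ratio at 30 h of -0.31 (-0.35 to -0.27). In aCap-like barcodes it was at 176, 160 and 203 CPM, a log2 ratio of 0.20 (0.13 to 0.28). Vein-like barcodes had 311, 232 and 257 CPM and LEC-like barcodes 597, 501 and 518 CPM. At 30 h the log2 ratio was -0.27 (-0.38 to -0.17) in vein-like and -0.21 (-0.44 to 0.03) in LEC-like barcodes, and 0.13 (-0.09 to 0.34) in artery-like barcodes. Uqcrfs1 was lower than control at 30 h in all 5 classes, with log2 ratios from -0.28 in artery-like to -0.18 in vein-like barcodes, though the intervals of artery-like, vein-like and LEC-like barcodes included 0.

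Within single gCap-like barcodes, the share of nuclear members among UMIs without mt- and the mt- share of all UMIs were weakly related. Spearman's rho was 0.306 over 6344 control, 0.224 over 6109 6 h and 0.288 over 4727 30 h barcodes. The same share of nuclear members was more closely related to the share of cytosolic ribosomal protein mRNAs, also among UMIs without mt-, with 0.658, 0.669 and 0.687. Such shares come from the same barcodes and from overlapping totals and are given as a description.

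Other genes of the mitochondrion and of large protein machines were set beside the members. The lists were chosen with earlier results of these data known. Shares of other genes weighted to length were not taken for these lists, so the part of length in their calls was not tested. Of 83 cytosolic ribosomal protein genes, 73 were higher at 30 h, with a median of 0.12 and 12 called higher (14.5%), close to the 12.2% of all genes. The largest were Rpl35 at 323, 363 and 552 CPM, with 0.77, and Rps29 at 2068, 1981 and 3145 CPM, with 0.60. Of 78 mitochondrial ribosomal genes, 57 were higher, with a median of 0.14 and 17 called (21.8%), led by Mrpl54 (0.90) and Mrpl33 (0.80). Of 37 proteasome genes, 16 were higher, with a median of -0.05, 1 called higher and 2 called lower, against 12.2% and 19.1% of all genes. Psmb10, an immunoproteasome subunit, was at 147, 198 and 200 CPM (0.44), and Psmd11, a subunit of the regulatory particle, at 167, 167 and 126 CPM (-0.41). The median of the nuclear respiratory members (0.25) lay above the medians of these lists. Within length classes, cytosolic ribosomal genes lay above the nuclear members at 1200 to 2000 bases (0.12 against 0.07) and at 2000 to 3000 bases (0.13 against 0.02). In each other length class that held both they lay below the nuclear members.

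The 17 TCA cycle genes had a median of -0.01 at 30 h, with 8 higher and 9 lower. They included Suclg2, a subunit of succinyl-CoA ligase, at 25.6, 23.1 and 42.2 CPM (0.70) and Pdhx, a part of the pyruvate dehydrogenase complex, at 23.7, 21.5 and 16.9 CPM (-0.47). The 29 measured genes of mitochondrial biogenesis and mtDNA expression had a median of -0.03, with 4 called higher (13.8%) and 3 lower (10.3%), against 12.2% and 19.1% of all genes. Pprc1, a coactivator of the PGC-1 family, was at 12.88, 19.99 and 16.78 CPM (0.60 at 6 h). Polg2, the accessory subunit of the mtDNA polymerase, was at 27.5, 36.7 and 20.3 CPM, above control at 6 h (0.40) and below it at 30 h (-0.42). Slirp, which binds mitochondrial mRNAs, was at 59.6, 61.9 and 83.9 CPM (0.48 at 30 h).

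Of 42 measured assembly factors and carriers outside the rule, 22 were higher and 20 lower at 30 h, with a median of 0.06. Called higher were 11 (26.2%, against 12.2% of all genes) and called lower 2 (4.76%, against 19.1%). A share weighted to length was not taken for this list either. Uqcc2, an assembly factor of complex III, was at 55.7, 74.0 and 119 CPM, with 0.40 at 6 h and 1.08 at 30 h. Cox20, which attends the assembly of mt-Co2, was at 38.5, 38.0 and 61.4 CPM (0.66). Cycs, the mobile electron carrier cytochrome c, was highest at 6 h, at 103, 135 and 124 CPM (0.39). The chaperonin genes Hspd1, at 88.2, 145 and 116 CPM, and Hspe1, at 89.3, 164 and 123 CPM, were also highest at 6 h, with log2 ratios of 0.71 and 0.87. A list of 9 cytosolic heat shock genes had a median of 1.06 in the same library. The 16 mitochondrial chaperones and proteases as a whole had medians of 0.06 at 6 h and -0.04 at 30 h, and the 6 measured mitochondrial redox genes, among them the peroxidase gene Gpx1 and the thioredoxin gene Txn2, had medians of 0.14 and 0.08.

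Among 12 measured carriers and pores of the inner membrane, Ucp2 had by far the largest difference. This uncoupling protein relative was at 990 CPM in control, 619 CPM at 6 h and 281 CPM at 30 h, log2 ratios of -0.68 and -1.81. The median of the 12 was -0.03 at 30 h. Slc25a5, an ADP/ATP carrier, was at 167, 199 and 164 CPM (0.25 at 6 h). The 5 measured genes of the hypoxia list had medians of -0.32 at 6 h and -0.08 at 30 h, with 1 and 2 of them higher. Bnip3, a mitophagy receptor, was at 39.4, 21.9 and 23.5 CPM, with -0.82 and -0.72, and Cox4i2 was at 34.1, 25.4 and 32.3 CPM, a gene that pericytes also express. Ndufa4l2 was at 14.2, 11.2 and 17.5 CPM, with -0.32 and 0.28. Cox4i2 and Ndufa4l2 were both among the leading genes of a cluster of 341 barcodes mixed with pericyte or smooth muscle RNA. Those barcodes are part of the sums over all ECs, and the part of pericyte RNA in both levels was not tested.

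RefSeq promoters (GRCm38.p6, 250 bases before to 50 after the start) were matched for 75 of the 91 nuclear members. The binding word of NRF1, a known regulator of respiratory chain genes, was searched as GCGCATGCG on either strand. It was found in 10 of the 75 (13.3%), against 1.95% of the 27025 genes in the table and 2.61% of the 17492 coding genes in it. The YY1 word AAGATGGCG was found in 8 (10.7%), against 1.64% and 2.14%, the ERR word TCAAGGTCA in 2 (2.67%), against 0.466% and 0.377%, and the ETS or GABPA word CCGGAAGT in 5 (6.67%), against 4.31% and 5.69%. CCAAT was found in 34 (45.3%), against 41.1% and 42.3%. The shares of the ETS word and of CCAAT were thus close to those of coding genes. The word of NRF1 reads nearly the same on both strands, so its matches can overlap.

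The promoters of 3 members with large differences at 30 h were picked because they hold such a word and are shown to place it, with matches to the NRF1, YY1 and ETS words in capitals, and each is written in the direction of its gene. Atp5k (chr5:108434350-108434649, - strand) holds the NRF1 word on both strands. Uqcr11 (chr10:80406772-80407071, - strand) holds an ETS word and an NRF1 word, and Ndufaf8 (chr11:120098684-120098983, + strand) holds a YY1 word. Atp5e, Ndufb2 and Ndufa1, with differences of 0.69 to 0.77, hold none of the NRF1, YY1, ETS and ERR words, and Ndufaf5, which holds the NRF1 word, had a log2 ratio of -0.09 at 30 h. A match is a description of the letters and not a measured binding site.
Atp5k: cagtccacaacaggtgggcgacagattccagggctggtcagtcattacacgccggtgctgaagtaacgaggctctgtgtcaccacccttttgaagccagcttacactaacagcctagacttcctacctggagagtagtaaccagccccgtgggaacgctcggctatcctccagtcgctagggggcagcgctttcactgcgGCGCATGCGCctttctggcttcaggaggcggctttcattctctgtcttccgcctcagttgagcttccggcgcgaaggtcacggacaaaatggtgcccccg
Uqcr11: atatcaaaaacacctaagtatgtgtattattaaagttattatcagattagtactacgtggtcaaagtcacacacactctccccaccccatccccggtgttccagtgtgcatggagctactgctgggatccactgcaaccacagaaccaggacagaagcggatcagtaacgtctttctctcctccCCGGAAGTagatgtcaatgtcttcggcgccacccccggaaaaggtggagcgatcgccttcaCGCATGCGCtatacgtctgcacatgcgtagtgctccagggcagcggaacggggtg
Ndufaf8: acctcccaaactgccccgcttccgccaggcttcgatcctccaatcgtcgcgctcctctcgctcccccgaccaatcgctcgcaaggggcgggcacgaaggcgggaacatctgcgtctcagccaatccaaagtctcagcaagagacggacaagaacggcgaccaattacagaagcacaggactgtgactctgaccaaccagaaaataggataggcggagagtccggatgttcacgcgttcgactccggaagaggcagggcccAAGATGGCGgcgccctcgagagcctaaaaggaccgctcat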

How the data were processed

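Each library was deposited by the authors as a matrix of UMI counts per gene and barcode with no normalization. The submitters' processing notes name Cell Ranger 7.2.0, Seurat 4.4.0 and the mm10 genome. The methods of the study name an older Cell Ranger version, and the version bears on whether intronic reads were counted, which is not given in the sources used here. Barcodes were kept with 1000 to 5000 detected genes, under 20% mt- UMIs and at least 2 UMIs of Pecam1 plus Cdh5. Counts were summed over the kept barcodes of a library, or of a class of EC, and expressed as CPM. Log2 ratios were taken with a pseudocount of 1 CPM for genes whose mean over the libraries reached 5 CPM, and 0.32 (1.25-fold) was the limit of a call. This limit is not a test. With 1 library per group no test across samples can be made and no pairing exists.

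Intervals at 95% are exact Poisson for levels, exact Clopper-Pearson for shares and conditional binomial for ratios, the latter without the pseudocount. They cover counting error only, and spread between mice cannot be seen. Classes came from Leiden clustering (scanpy 1.11.5, leidenalg 0.10.2, resolution 1.0, 2000 variable genes, 30 components, 15 neighbors, no batch correction) and marker genes, and doublets were kept except in an alternative that left out the highest Scrublet scores. Empty droplets were barcodes of up to 100 UMIs. Transcript lengths are from GENCODE M21, which matched 99.6% of the genes. For each gene the principal transcript of the annotation was taken, and the longest where several ranked alike. Such a length can exceed that of the mRNA that was counted. The ratio and interval code was tested on simulated data (Python 3.11.15, SciPy 1.17.1).

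The genes named were all 13 mt- members, per comparison with control and per complex the 2 nuclear members highest and the 2 lowest in log2 ratio among those with at least 50 CPM, the isoform families, and per related list the 2 of largest absolute log2 ratio. Of the related genes so chosen, those described stand for their lists. A single gene of the nuclear members so chosen is not reported here. Members and lists were chosen with earlier results of these data known. Alternatives changed the scaling total, the limits on barcodes, doublets, free RNA, the weight of barcodes, the pseudocount, the filter, the classes and, added after the data were seen, transcript length.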

Additional observations from a re-analysis of the deposited data

Results flagged for a closer look

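For 4 members the 30 h to control difference pointed one way in one class of EC and the other way in LEC-like barcodes, which number only 70, 53 and 54 in the control, 6 h and 30 h libraries. The difference between classes was not tested, and each class has 1 library per group. Ndufb11, an accessory subunit of complex I, had a log2 ratio of 0.47 in artery-like and -0.42 (-0.86 to 0.00) in LEC-like barcodes, where it held 116, 82 and 78 UMIs. Ndufb4, another accessory subunit, had 0.55 in artery-like and -0.38 (-0.79 to 0.02) in LEC-like barcodes, where it held 127, 93 and 88 UMIs. Ndufv3 had 0.43 in aCap-like and -0.52 (-1.21 to 0.14) in LEC-like barcodes, with 51, 39 and 32 UMIs in the latter. mt-Nd6 had 0.48 in artery-like and -0.35 (-1.09 to 0.37) in LEC-like barcodes, with 41, 19 and 29 UMIs in the latter.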

How the results depend on the processing

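Of 264 values under alternatives, 249 stayed within the interval of the median over members, or within 1.5 times for counts, and 15 did not. Most alternatives reuse many of the same UMIs, so staying within these limits is a weak check. The interval is set by the ranked values of the members, which are not replicates. It shows the spread between genes and not counting error. This interval is wide for the 13 mt- members, and values inside it still shifted, as with classes from marker UMIs, where the mt- median went from 0.11 to 0.21 in aCap-like barcodes at 30 h and from -0.0026 to -0.06 in gCap-like barcodes at 6 h. The sign differed for 5 medians, all of 6 h against control in a class, near 0 and between -0.02 and 0.02 on either side. No sign differed at 30 h. Relative to genes of like transcript length, chosen after seeing the data, the nuclear median was 0.18 at 30 h against control and 0.13 against 6 h, and the mt- median was 0.079 against control. On that scale the nuclear members past the limit of a call and higher numbered 16 against control and 18 against 6 h, with 2 past it lower against control. These counts have no background, since the share of other genes past the limit on that scale was not taken. Median-of-ratios scaling gave a nuclear median of 0.30 at 30 h against 6 h. Without a filter 1 nuclear member was past the limit lower at 30 h. At 6 h, a filter of 50 CPM left 0 past it higher, barcodes of at least 300 genes left 0 past it lower, and the mt- median with 10% free RNA taken off was 0.033. With each library clustered on its own, the gCap-like medians at 30 h were 0.11 for nuclear and 0.13 for mt- members, and the artery-like nuclear median at 6 h was 0.15. Classes from marker UMIs of each barcode gave 0.48 for nuclear members in gCap-like barcodes. Beyond the length scale, which lowers short genes by construction, the cause was not tested. No paired analysis was possible because each group has 1 library, and no library could be left out for the same reason. Counting error is small for sums over all ECs and limits the LEC-like values and the muscle and testis isoforms.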
